A study of Macaca mulatta with 8 samples.

Results

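F11R, CLDN1 and CLDN3 encode 3 membrane proteins of the tight junction. They are 3 of 14132 measured genes, and the rhesus macaque array used here measures them with 8 of its 52766 probe sets, 4 for F11R, 2 for CLDN1 and 2 for CLDN3. The members are all probe sets to which the platform annotation gives exactly 1 of these symbols. The 3 genes were selected on the measured log2 difference of their probe sets after against before an ovulatory stimulus, so that difference is described and not tested. The arrays hold amplified total RNA of granulosa cells of Macaca mulatta, the somatic cells that line the follicle, with 4 arrays in each of 2 groups. Cells of the first group (PM-GC, "before hCG") came from follicles stimulated with FSH only. Cells of the second group (VVM-GC, "after hCG") came from follicles that had also matured in vivo under hCG, the hormone used in place of the LH surge, so the FSH treatment is common to both groups. The sample labels speak of cells of cumulus-oocyte complexes and the series design of mural granulosa cells. No genotype or age is named, and hormone doses, the time of collection and the animals behind each array were not given in the sources used here. The p-values below therefore judge a difference only against the spread between these arrays, which may be partly technical.

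Tight junctions close the space between neighbouring cells and separate the upper from the lower part of the cell surface. Claudins, such as CLDN1 and CLDN3, join into the strands that form the seal and set which ions and molecules pass. F11R, also called JAM-A, is an adhesion protein of the immunoglobulin superfamily that binds its like on the next cell and holds polarity and scaffold proteins, such as PARD3 and AFDN, at the contact. Scaffolds, such as TJP1, tie claudins and F11R to the actin cytoskeleton. Granulosa cells form an epithelium-like layer known mainly for its gap and adherens junctions, and this layer is reorganised when the follicle ovulates and becomes the corpus luteum.

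Array medians were 5.44 to 5.54 on the log2 scale. Across probe sets, pairs of arrays correlated at 0.984 to 0.988 within the group before hCG, at 0.974 to 0.984 within the group after hCG, and at 0.935 to 0.957 where they came from both. The excess of ACTB read by its 3' probe set over its 5' probe set can depend on RNA integrity and on amplification, here in 2 rounds. It was 4.70 to 4.80 before hCG. After hCG it ran from 4.47 in array 1 to 5.18 in array 3, a wider range than before. Of 14 granulosa markers 10 were measured. The 3 brightest were SERPINE2, INHA and INHBA, at log2 intensities of 14.55 ± 0.02, 14.07 ± 0.08 and 12.76 ± 0.19 before hCG. After hCG they were at 14.48 ± 0.06, 13.50 ± 0.19 and 11.12 ± 0.23 (SD, n = 4). These markers were thus read in both groups, with INHA and INHBA lower after hCG. Of these 10 markers 8 fell after hCG and none rose in limma's test (0 rose also at an unadjusted p under 0.05), with a median change of -1.13. In shares, 80% fell and 0% rose, against 12.5% and 11.3% of all genes. Their summed intensity was 55821 to 61924 before and 37497 to 42369 after hCG, and the part of this in the results for the members was not tested. FSHR, LHCGR and FOXL2 found no match among the measured genes.

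Of the 8 member probe sets, 7 (87.5%) had all 4 arrays after hCG above all 4 before it. Among all probe sets 8.38% did so. A mean at least 2-fold higher was found in 6 of the 8, against 4.78% of all probe sets, and one at least 4-fold higher in 4, against 1.49%. The rule used this contrast, so nothing is read from these shares. Values are log2 intensities after robust multi-array averaging (RMA). Probes differ in how strongly they bind, so a percentile or a place against the median describes a signal and not an amount of RNA.

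F11R, which brings polarity proteins to cell contacts, had the largest difference of the members in its brightest probe set, MmugDNA.30028.1.S1_at. Before hCG its log2 intensities were 6.94, 6.24, 5.27 and 6.55 in arrays 1 to 4. After hCG they were 10.08, 11.38, 10.82 and 11.63. The groups were 3.14 apart at their nearest points, and the mean went from 6.25 ± 0.71 to 10.98 ± 0.69 (SD, n = 4). The log2 difference of 4.73 (SE 0.40) is 26.6-fold on the intensity scale. This probe set stood at the 63.2 percentile of all probe sets before hCG and at the 97.4 percentile after it.

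The other F11R probe sets showed smaller differences. MmugDNA.26771.1.S1_at read 6.20, 5.92, 6.03 and 6.16 in the 4 arrays before hCG. After hCG it read 7.05, 9.20, 7.55 and 8.94. Its difference was 2.11 (SE 0.42), and its SD was 1.05 after hCG against 0.13 before it, so the arrays after hCG fell into a higher pair (2 and 4) and a lower pair (1 and 3).

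MmuSTS.4739.1.S1_at read 5.02, 5.18, 4.87 and 4.88 before hCG. It read 6.40, 7.42, 6.47 and 7.54 after hCG. Here too arrays 2 and 4 were the higher ones, and the difference was 1.97 (SE 0.26), or 1.31 with 32 added to each intensity, which damps folds at low signals. The probe set that did not separate the groups was MmugDNA.6455.1.S1_at, with 2.39, 2.97, 2.71 and 2.54 before hCG and 2.63, 2.87, 2.73 and 3.13 after it. Its difference was 0.18 (SE 0.16), and its level lay at the 2.17 percentile of all probe sets before hCG and at the 4.56 percentile after it. The average of the 4 F11R probe sets went from 4.99 ± 0.19 to 7.24 ± 0.62, a difference of 2.25 (SE 0.27).

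CLDN1, a sealing claudin best known from the barrier of the skin, started below the median of all probe sets, 5.50. Its brighter probe set, MmuSTS.3420.1.S1_at, read 4.30, 5.37, 4.85 and 4.60 before hCG. After hCG it read 9.49, 8.94, 8.33 and 8.88. The nearest points of the groups were 2.96 apart, and the mean went from 4.78 ± 0.45 to 8.91 ± 0.47, a log2 difference of 4.13 (SE 0.27) or 17.5-fold. Its place among all probe sets moved from the 35.6 to the 89.1 percentile. With 32 added to each intensity the difference was 3.10.

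The second CLDN1 probe set, MmugDNA.17864.1.S1_at, read 4.65, 4.55, 4.58 and 4.46 before hCG. It read 5.76, 5.73, 5.16 and 5.08 after hCG. The groups did not overlap, but the difference was 0.87 (SE 0.17), far below that of MmuSTS.3420.1.S1_at, and the mean after hCG (5.43 ± 0.36) was still below the array median. With 32 added to each intensity it was 0.44. The average of both CLDN1 probe sets differed by 2.50 (SE 0.19).

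CLDN3, another sealing claudin, was read by 2 probe sets that both separated the groups. Its brighter probe set, MmuSTS.3421.1.S1_at, read 7.35, 7.20, 6.95 and 7.48 before hCG. It read 9.63, 9.97, 10.18 and 9.83 after hCG. The mean went from 7.25 ± 0.23 to 9.90 ± 0.23, a log2 difference of 2.66 (SE 0.15) or 6.31-fold, from the 76.5 to the 94.1 percentile.

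The second CLDN3 probe set, MmugDNA.30155.1.S1_at, read 6.45, 6.22, 6.17 and 6.88 before hCG and 8.02, 8.15, 8.25 and 7.90 after it. The difference was 1.65 (SE 0.17), or 3.14-fold, and the lowest array after hCG lay 1.02 above the highest before it. The average of both CLDN3 probe sets differed by 2.15 (SE 0.15). A change in the number of cells that express a gene and a change in its RNA per cell cannot be told apart in such samples of many cells.

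**Figure D1:**
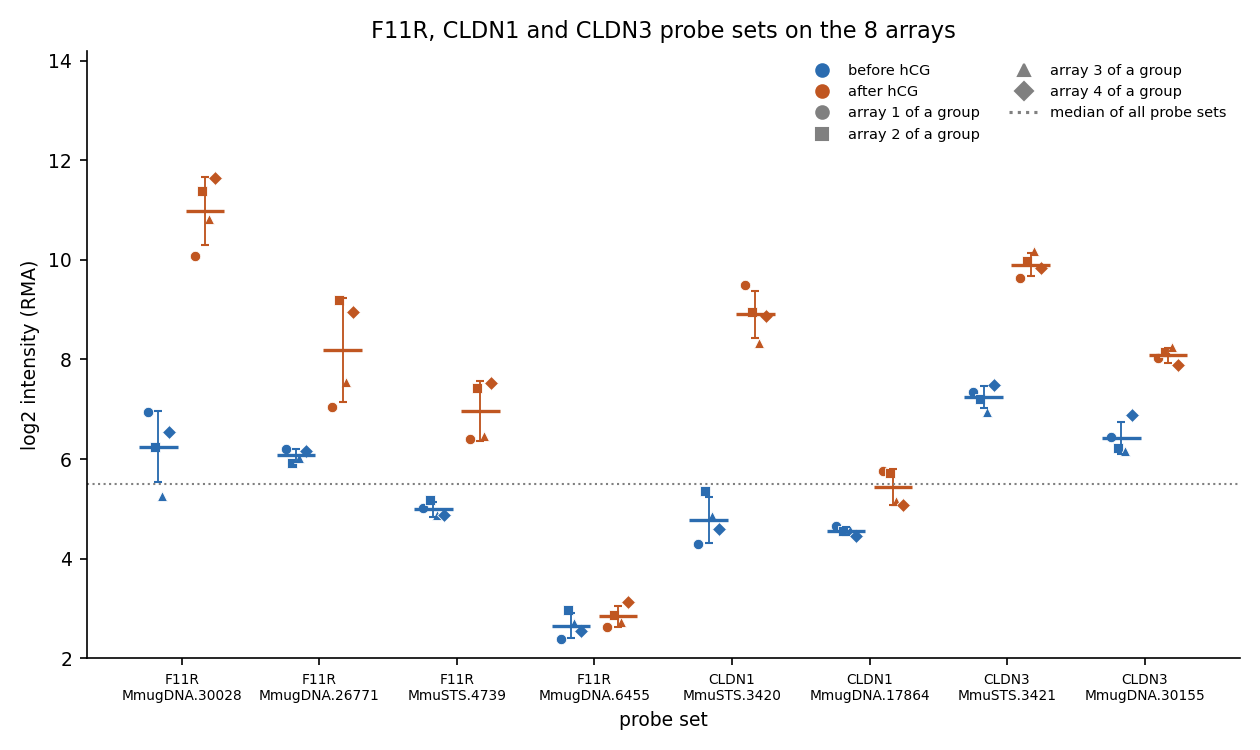
Log2 RMA intensity (vertical axis) of each of the 8 probe sets of F11R, CLDN1 and CLDN3 (horizontal axis, brightest first within a gene) on the 4 arrays before and the 4 after hCG; bars are means, error bars SD (n = 4), and the dotted line is the median of all probe sets, 5.50. In 7 probe sets the groups do not overlap, and F11R MmugDNA.6455.1.S1_at lies near the bottom of the range in both groups.

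Among the arrays after hCG, the 3 genes did not share an order. For the 3 F11R probe sets that separated the groups, arrays 2 and 4 were the highest and array 1 the lowest, at 1.14 below the mean of its group in MmugDNA.26771.1.S1_at and 0.90 below it in MmugDNA.30028.1.S1_at. For both CLDN1 probe sets array 1 was the highest, at 0.58 and 0.33 above the mean. In MmugDNA.17864.1.S1_at array 2 was close to it, at 0.30 above the mean. For both CLDN3 probe sets array 3 was the highest, at 0.28 and 0.17 above the mean. The array with the lowest F11R was thus the one with the highest CLDN1. It was also the lowest for CLDN3 MmuSTS.3421.1.S1_at, at 0.27 below the mean. Array 1 also had the smallest excess of the 3' over the 5' reading of ACTB and array 3 the highest. The part of RNA integrity or amplification in these orders was not tested. In MmugDNA.26771.1.S1_at the deviation of array 1 was larger than the distance of 0.85 between the nearest points of the groups. Over the arrays of both groups, deviations from the group means of the brightest F11R and CLDN3 probe sets correlated at 0.63. For F11R and CLDN1 this r was -0.46, and for CLDN1 and CLDN3 it was -0.71.

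**Figure D2:**
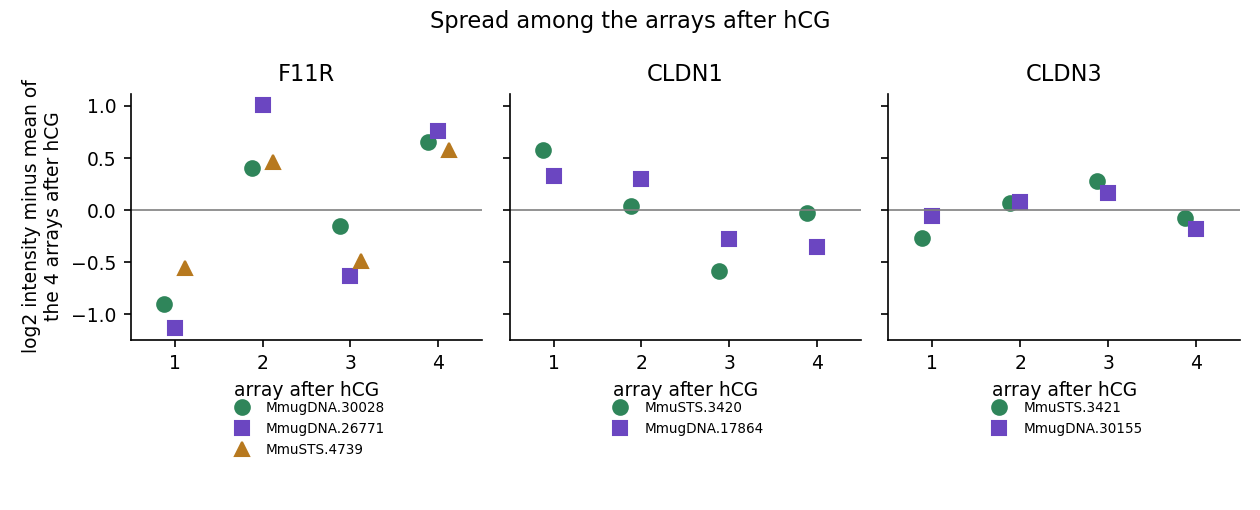
Deviation of each array after hCG (1 to 4, replicate names without order) from the mean of the 4 arrays after hCG, in log2 units, for the 7 probe sets whose groups do not overlap, in 1 panel per gene. F11R is highest in arrays 2 and 4, CLDN1 in array 1 and CLDN3 in array 3. In CLDN1 MmugDNA.17864.1.S1_at array 2 lies close to array 1.

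The other genes of the tight junction did not move as a whole. Of 86 listed genes in 6 lists (other claudins, JAM family, occludin family, scaffolds, polarity complexes and F11R partners), 62 were measured. After hCG 11 of them (17.7%) rose and 4 (6.45%) fell at an adjusted p under 0.05 in limma, and 47 did not pass. Over all 14132 genes 11.3% rose, 12.5% fell and 23.8% passed in either direction. The 24.2% of the tight junction genes that passed is close to that background. Their median log2 change was -0.06, against -0.09 for all genes.

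None of the 15 other measured claudins rose after hCG (limma, 0 also at an unadjusted p under 0.05), and their changes ran from -0.51 to 0.14. In shares, 0% rose and 6.67% fell, against 11.3% and 12.5% of all genes. In a list of 15 genes a count of 0 is not far from that background. The count of claudins that rose was also 0 under each of the 15 alternative settings, which all use these same arrays. CLDN23 fell by 0.51 (SE 0.14, adjusted p = 0.0226), from a low signal of 3.56 ± 0.20 to 3.05 ± 0.17. With 32 added it fell by 0.12 (adjusted p = 0.115), and the call was also lost without array 1 or 4 before hCG or array 2 or 4 after it (adjusted p = 0.0573 to 0.0653).

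CLDN4, a claudin close to CLDN3 in kind and in the genome, read 6.62, 6.63, 6.80 and 6.59 before hCG and 6.82, 6.86, 6.77 and 6.75 after it. Its groups overlapped, and the change was 0.14 (SE 0.10, adjusted p = 0.353). CLDN5, the claudin of blood vessel walls, read 6.54 ± 0.14 before hCG and 6.23 ± 0.09 afterwards (adjusted p = 0.0731). With 32 added it fell by 0.22 (adjusted p = 0.0458). CLDN11 had no matching measured gene.

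Of 7 listed proteins of the JAM family and its relatives, 4 were measured, 1 rose and none fell (limma, 0 also at an unadjusted p under 0.05), with a median of 0.53. The shares were 25% and 0%, against 11.3% and 12.5% of all genes. CLMP, an adhesion protein related to the coxsackie and adenovirus receptor, read 5.65, 5.23, 5.99 and 5.66 before hCG and 9.23, 8.58, 8.68 and 9.24 after it. All arrays after hCG were higher, and CLMP rose by 3.30 (SE 0.21, adjusted p = 7.51e-06). Both of its probe sets rose, as did 7.24% of all probe sets, and their average rose by 2.18. CXADR, that receptor itself, read 4.59, 4.16, 4.30 and 4.20 before and 4.59, 6.58, 4.98 and 5.17 after hCG. Array 2 stood above the rest, and the difference of 1.02 did not pass (adjusted p = 0.0717). It passed at 0.60 without array 2 after hCG (adjusted p = 0.0411), at 1.27 without array 1 after hCG (adjusted p = 0.0345) and at 1.16 with array weights (adjusted p = 0.0489). JAM2 and JAM3, the nearest relatives of F11R, had no match among the measured genes.

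Of the 6 MARVEL and tricellular proteins, 4 were measured and none passed (limma, 0 in either direction also at an unadjusted p under 0.05), with a median of -0.10. Over all genes 23.8% passed in either direction. OCLN, occludin, averaged 3.20 ± 0.19 before hCG and 2.95 ± 0.11 afterwards (adjusted p = 0.185), far below the array median in both groups.

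Among 23 listed scaffolds, 18 were measured, 5 rose, 1 fell and 12 did not pass, with a median of 0.06. Thus 27.8% rose and 5.56% fell, against 11.3% and 12.5% of all genes. AMOTL1, an angiomotin-like protein, read 6.45, 6.62, 6.54 and 6.22 before hCG. It read 10.24, 9.71, 9.81 and 10.46 after hCG. It rose by 3.60 (SE 0.18, adjusted p = 2.49e-06), with 2 of 4 probe sets higher and 1.36 for the average of all of them.

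AFDN, the scaffold that links F11R and nectins to actin, read 10.49, 10.47, 10.36 and 9.77 before hCG. After hCG it read 12.45, 11.82, 11.97 and 12.23. The groups did not overlap, and it rose by 1.84 (SE 0.20, adjusted p = 0.000152), with 2 of 5 probe sets higher and 1.06 for their average. MAGI1, a scaffold with several PDZ domains, rose by 1.27 (SE 0.17, adjusted p = 0.000711), or by 0.74 with 32 added and by 0.80 when its probe sets were averaged. Of its 2 probe sets 1 was called higher.

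TJP1, the main scaffold under claudins, averaged 10.69 ± 0.30 before hCG and 10.22 ± 0.15 afterwards (adjusted p = 0.0634). It fell by 0.60 after repeated quantile normalization (adjusted p = 0.0182) and by 0.57 without array 4 before hCG (adjusted p = 0.0343). CGN, cingulin, fell by 0.85 (SE 0.22, adjusted p = 0.0189), or by 0.49 when its probe sets were averaged. Of its 2 probe sets 1 was called lower.

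Of 14 listed genes of the polarity complexes, 11 were measured, 2 rose and 1 fell, with a median of -0.09. The shares were 18.2% and 9.09%, against 11.3% and 12.5% of all genes. PARD3, which F11R binds, fell by 0.78 (SE 0.18, adjusted p = 0.0104), from 6.96 ± 0.09 to 6.18 ± 0.37. PRKCI, the atypical protein kinase C that works with PARD3, rose by 1.07 (SE 0.30, adjusted p = 0.0286). That call was lost without array 1, 3 or 4 before hCG or array 1 or 2 after it (adjusted p = 0.0564 to 0.0741). DLG1 rose by 0.72 (adjusted p = 0.0458), a call lost when any single array other than 2 or 3 after hCG was left out (adjusted p = 0.08 to 0.108), after repeated quantile normalization (adjusted p = 0.088) and with 32 added (adjusted p = 0.064). Of the 5 DLG1 probe sets 1 was called higher, and their changes ran from -0.06 to 1.14.

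Among 14 listed effectors and binding partners of F11R, 10 were measured, 3 rose and 1 fell, with a median of 0.30. In shares, 30% rose and 10% fell, against 11.3% and 12.5% of all genes. RAPGEF6, an exchange factor for RAP GTPases that F11R reaches through AFDN, read 8.33, 8.50, 8.09 and 7.59 before and 10.24, 10.60, 9.89 and 9.67 after hCG. It rose by 1.97 (SE 0.24, adjusted p = 0.00037) in its brightest probe set, but 3 of its 9 probe sets rose and their average did not pass at 0.47 (adjusted p = 0.059). RAPGEF2, a related exchange factor, rose by 0.79 (SE 0.15, adjusted p = 0.00453). CD151, a tetraspanin, rose by 0.77 (SE 0.10, adjusted p = 0.000438). CSK, a kinase that restrains SRC, fell by 0.39 (adjusted p = 0.0447). Its call was lost when any single array other than 3 after hCG was left out (adjusted p = 0.0578 to 0.107), with arrays centred on their median (adjusted p = 0.0746) and with array weights (adjusted p = 0.0501).

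**Figure D3:**
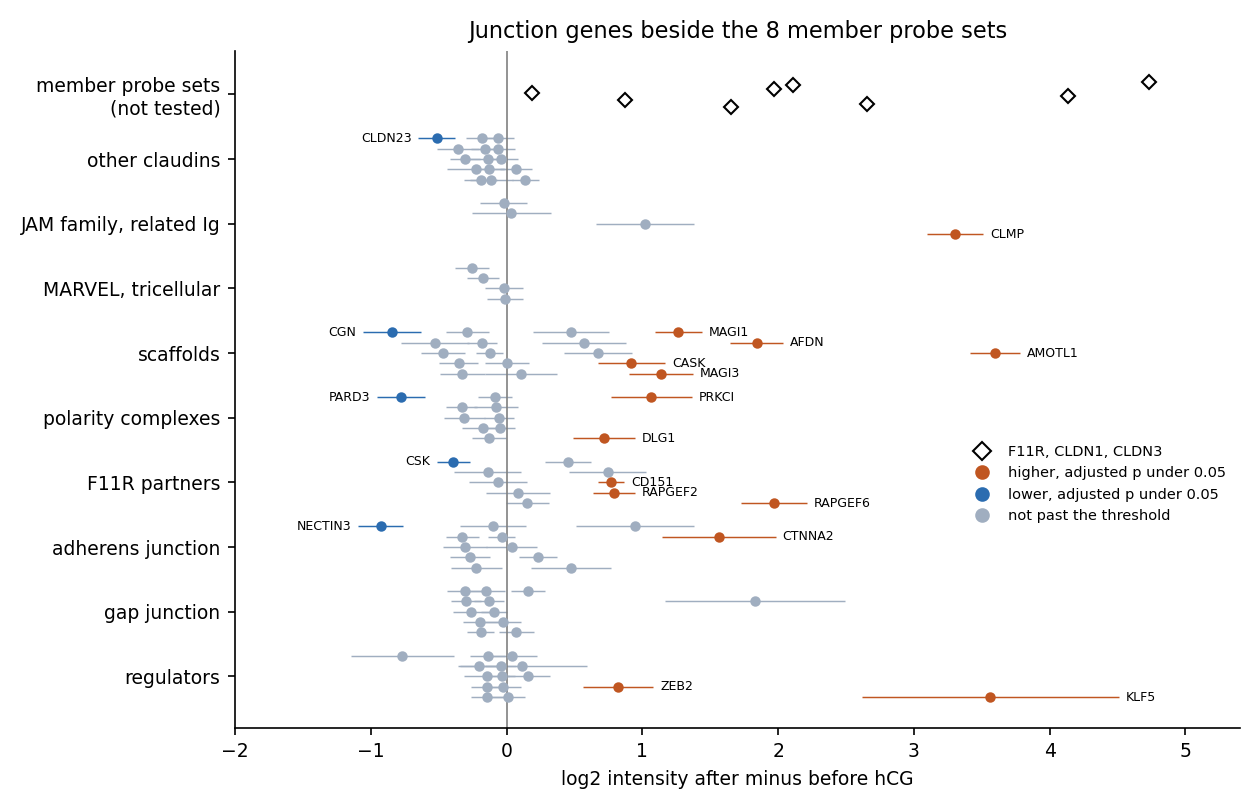
Log2 intensity after minus before hCG (horizontal axis) of the measured genes of 9 junction lists (rows), with SE bars and colours for the limma call at an adjusted p under 0.05; open diamonds are the 8 probe sets of F11R, CLDN1 and CLDN3, which were not tested. The other claudins lie between -0.51 and 0.14, and AMOTL1 and CLMP have the largest increases among the tight junction genes, at 3.60 and 3.30.

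The neighbouring junction types and the regulators had a smaller share of calls than all genes, and no set test was run. Of 55 listed genes of adherens and gap junctions and of their transcription regulators, 39 were measured, 3 rose and 1 fell. These are 7.69% and 2.56%, against 11.3% and 12.5% of all genes. In the adherens junction, NECTIN3, an adhesion protein that AFDN binds, fell by 0.93 (SE 0.17, adjusted p = 0.0031), and CTNNA2, an alpha-catenin, rose by 1.56 (SE 0.42, adjusted p = 0.0226), so that 1 of 12 rose and 1 fell (median -0.07). The CTNNA2 call was lost with 32 added (0.63, adjusted p = 0.0798), with the replicate number as a block (adjusted p = 0.0565) and without array 1 or 4 before or array 4 after hCG (adjusted p = 0.0549 to 0.0635). CDH1, E-cadherin, averaged 4.96 ± 0.37 before hCG and 4.73 ± 0.19 afterwards (adjusted p = 0.429). No gene of the 12 measured connexins of gap junctions passed (limma; at an unadjusted p under 0.05, 1 higher and 2 lower, median -0.14). CDH2 and GJA1 had no match among the measured genes.

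Of 21 listed regulators of epithelial junctions, 15 were measured, 2 rose and none fell (limma, 0 also at an unadjusted p under 0.05), with a median of -0.03. The shares were 13.3% and 0%, against 11.3% and 12.5% of all genes. KLF5, a zinc finger factor of epithelia, read 4.82, 5.38, 4.68 and 3.78 before hCG and 9.73, 9.73, 8.52 and 4.91 after it. Array 4 after hCG lay within the range of the arrays before hCG. KLF5 rose by 3.56 (SE 0.95, adjusted p = 0.0224), a call lost without array 3 or 4 before hCG or array 1 or 2 after it (adjusted p = 0.0538 to 0.0674). ZEB2, a repressor of epithelial genes, rose by 0.82 (adjusted p = 0.0457). Its call was lost with quantile normalization repeated (adjusted p = 0.0733), with 32 added (adjusted p = 0.0693), with the replicate block (adjusted p = 0.0702) and when any single array other than 3 before or 1 after hCG was left out (adjusted p = 0.07 to 0.12). Its relative ZEB1 averaged 8.16 ± 0.48 before hCG and 7.39 ± 0.80 afterwards (adjusted p = 0.181) and fell by 1.12 without array 3 after hCG (adjusted p = 0.0219). SNAI2 and GRHL2 had no match among the measured genes.

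The genes beside the members on the chromosome were examined by their order in the RefSeq annotation (assembly T2T-MMU8v2.0), with the 2 nearest protein-coding genes on each side. Of 12 neighbours 9 were measured, and for each of them the groups overlapped and limma's test did not pass. Over all genes 23.8% passed in either direction. With only 9 genes, nothing about the surroundings of the members is read from this count. CLDN16, next to CLDN1, averaged 3.77 ± 0.11 before hCG and 3.62 ± 0.08 afterwards (adjusted p = 0.317). P3H2, on its other side, was at 12.47 ± 0.27 and 12.84 ± 0.40 (adjusted p = 0.259). CLDN3 lies between ABHD11, which averaged 7.35 ± 0.20 before hCG and 7.74 ± 0.26 afterwards (adjusted p = 0.114), and CLDN4. The measured neighbours of F11R were USF1 and ITLN1, with changes of -0.03 and -0.82 (adjusted p = 0.92 and 0.191).

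The genes most like each member were taken by Pearson's r with its brightest probe set over the 8 arrays, as a description, since any gene with a clear difference between the groups scores high. An r above 0.95 was reached by 141 genes for F11R, 322 for CLDN1 and 246 for CLDN3, of 14131. The closest to F11R was PDLIM1, an actin-associated LIM protein (r = 0.993), with 8.14 ± 0.33 before and 10.99 ± 0.31 after hCG. It was followed by SYBU, PDE5A, FAM47E and AJUBA, a LIM protein found at cell contacts (r = 0.986). The closest to CLDN1 was FERMT2, a kindlin that activates integrins (r = 0.997), with 9.63 ± 0.23 before and 11.54 ± 0.24 after hCG, followed by GNE, TPM3, STARD3 and PDLIM3. The closest to CLDN3 was S100A10, a partner of annexin A2 (r = 0.997), with 11.08 ± 0.18 before and 13.68 ± 0.11 after hCG, followed by NPTX2, UNC13B, PDE5A and TTYH2. PDE5A, a phosphodiesterase of cyclic GMP, was among the 5 closest genes of both F11R and CLDN3. When likeness was taken over deviations from the group means instead, 0 of the 5 genes stayed among the closest 5 for each member. The r of these deviations was still 0.60 (TTYH2 with CLDN3) to 0.93 (FERMT2 with CLDN1) for the genes named here. They were picked by an r that includes the same deviations.

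F11R is also carried by leukocytes, platelets, endothelium and epithelia, and claudins by epithelia, so markers of these cells were read on the same arrays. The intensity summed over 11 measured of 16 epithelial markers ran from 1193 to 1377 before hCG and from 1904 to 2370 after it, with no overlap. Of the 11 genes, 2 rose and none fell (limma, 1 lower at an unadjusted p under 0.05). The shares were 18.2% and 0%, against 11.3% and 12.5% of all genes. KRT18, a keratin, rose by 2.25 (SE 0.18, adjusted p = 3.08e-05) in its brightest probe set. Its other probe set differed by -0.24, and the average of the 2 rose by 1.01. KRT19 rose by 1.32 (SE 0.36, adjusted p = 0.0266). The KRT19 call was lost when any single array other than 2 before or 4 after hCG was left out (adjusted p = 0.0571 to 0.071). EPCAM, a defining adhesion protein of epithelia, averaged 3.94 ± 0.09 before hCG and 4.42 ± 0.63 afterwards (adjusted p = 0.232), below the array median in both groups like CDH1, and KRT8 was at 6.27 ± 0.15 and 6.22 ± 0.29 (adjusted p = 0.848). CDH3, P-cadherin, averaged 7.90 ± 0.44 before hCG and 8.85 ± 0.97 afterwards (adjusted p = 0.153). UPK3B, a uroplakin, averaged 8.23 ± 0.13 and 7.92 ± 0.19 (adjusted p = 0.112), and it fell by 0.41 without array 2 after hCG (adjusted p = 0.0465). The list was thus mixed, with 6 of the 11 differences below 0 and a median of -0.05, while its sum, in which bright genes weigh most, was higher after hCG. The part of epithelial cells in the results for the members was not tested.

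The summed intensity of 10 measured of 16 leukocyte markers ran from 1496 to 1771 before hCG and from 487 (array 3) to 2189 (array 2) after it. None of them rose and 1 fell, CSF1R, by 2.09 (limma, 1 higher at an unadjusted p under 0.05). The shares were 0% and 10%, against 11.3% and 12.5% of all genes, which is also the background for the lists that follow. CD68, named here after its values were seen, differed by 0.84 (limma, adjusted p = 0.0502), and its other probe set by -0.62. With quantile normalization repeated, median centring or the replicate block, 1 leukocyte marker was called higher. The same count was found with only signals above the median or without array 3 after hCG. Without array 1 after hCG 2 were called lower. The platelet sum (8 of 10 markers) was 541 to 661 before and 530 to 606 after hCG, and none passed (limma; at an unadjusted p under 0.05, 0 higher and 1 lower). The endothelial sum (12 of 14) was 660 to 774 before hCG and 642 to 1198 after it, with the highest value in array 1, where VWF read 9.10. None of the endothelial markers passed (limma; 1 higher and 1 lower at an unadjusted p under 0.05). VWF, a protein of vessel walls and platelets, differed by 1.26 (adjusted p = 0.138), by 0.67 without array 1 after hCG (adjusted p = 0.223), and it rose by 1.74 without array 3 after hCG (adjusted p = 0.0217). Sums for theca and stroma (7 of 10) were 725 to 831 before and 705 to 1244 after hCG. TAGLN rose by 0.42 (adjusted p = 0.026) and CYP17A1 fell by 0.47 (adjusted p = 0.0303), both named here after their values were seen. Each is 14.3% of the 7 measured genes, near the shares over all genes. No gene of this list rose with the replicate block, with probe sets averaged or without array 1, 3 or 4 before or array 1 or 3 after hCG (limma, 1 to 2 at an unadjusted p under 0.05). None fell with probe sets averaged, with only signals above the median, with array weights or without array 2, 3 or 4 before or array 1, 3 or 4 after hCG (limma, 0 to 2 at an unadjusted p under 0.05). DCN, a matrix proteoglycan, differed by 0.92 (adjusted p = 0.0844) and rose by 1.30 without array 2 after hCG (adjusted p = 0.00168). The sums for oocyte markers (8 of 12; none passed in limma, 0 also at an unadjusted p under 0.05) were 652 to 796 before and 649 to 909 after hCG. The sums of leukocyte, platelet, endothelial, stromal and oocyte markers overlapped between the groups, and their median log2 changes were -0.39, -0.08, -0.04, -0.15 and -0.12. The part of these cell types in the results for the members was not tested.

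**Figure D4:**
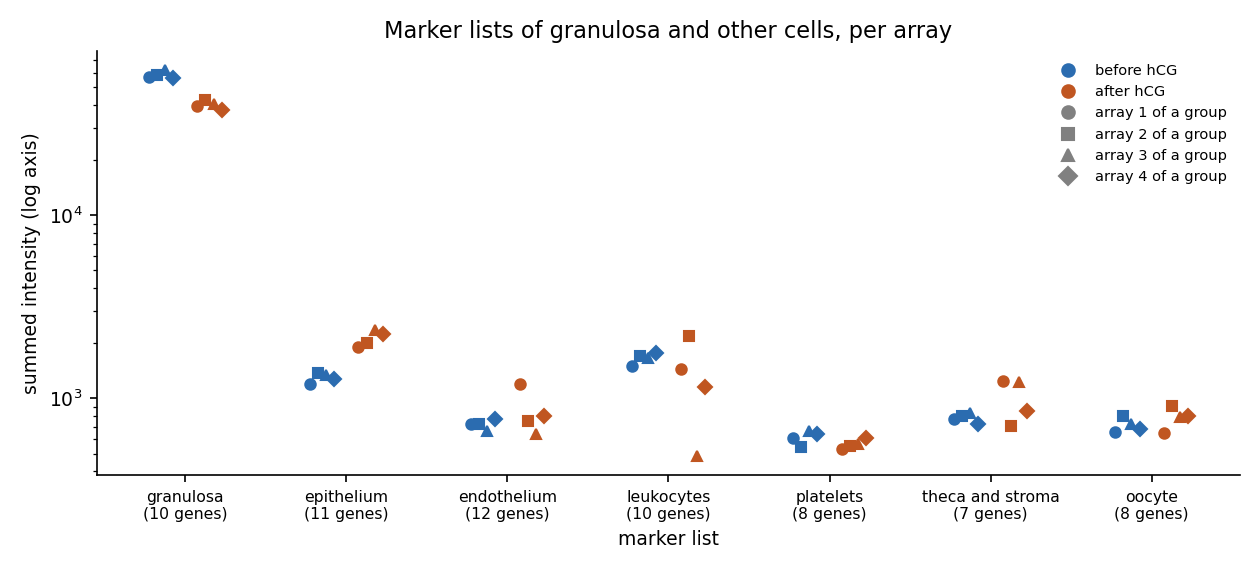
Summed linear intensity (vertical log axis) of the measured markers of 7 cell types (horizontal axis) on each array before and after hCG. The epithelial sum is higher after hCG on all arrays, the granulosa sum is lower, and the other sums overlap, with leukocyte markers lowest in array 3 after hCG at 487.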

How the data were processed

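RNA of 8 granulosa cell samples, 4 per group, was amplified in 2 rounds and hybridised to a rhesus macaque Affymetrix array, per the labels' protocols. The authors deposited intensity values on a linear scale, made with Affymetrix Expression Console and RMA, per the submitters' processing notes; software versions and the genome build were not given in the sources used here. Log2 was taken of the deposited values with no further scaling. Of 52865 probe sets 99 array controls were left out. In the platform annotation 24956 probe sets had 1 symbol, 361 had several and 27449 had none, and 24616 had a gene ID in the RefSeq table (assembly T2T-MMU8v2.0), which was used for names and gene order. A gene was represented by its brightest probe set over the 8 arrays, giving 14132 genes, of which 6375 had several probe sets.

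The groups were compared with limma 3.58.1 in R 4.3.3 (lmFit and eBayes), without a block, with Benjamini-Hochberg adjustment over all genes and a threshold of 0.05, after the script was tested on simulated data. Calls of single probe sets came from a separate fit, adjusted over all 52766 probe sets. A gene could thus pass while its only probe set did not, as for CSK and ZEB2. Named genes were 20 genes of interest, up to 3 called genes in each direction per junction list, 3 per marker list and the 5 most like each member. The members, lists and tests were chosen with earlier results of these data known. Alternatives were quantile normalization repeated, median centring, 32 added to each intensity, the mean over a gene's probe sets, only signals above the median, array weights, the replicate number as a block, and leaving out each array. Same-numbered arrays did not deviate together (correlations of -0.01 to 0.15), so the numbers were not taken as pairs. Array number limits precision.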

Additional observations from a re-analysis of the deposited data

Results flagged for a closer look

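Among 140 groups of 4 arrays examined for a single array apart from the rest, 7 had one, or 5%, and chance marks about 1 in 20 such groups. None of them belonged to a probe set of F11R, CLDN1 or CLDN3. Array 1 after hCG was the highest for OCLN, at 3.11 against 2.89 to 2.92 on the other arrays, and for CLDN23, at 3.30 against 2.93 to 2.99. It was the lowest for PDE5A, at 10.46 against 11.12 to 11.25. Array 2 after hCG was the highest for INHA, at 13.77 against 13.37 to 13.43, and for UPK3B, at 8.20 against 7.81 to 7.84. Array 2 before hCG was the lowest for EGFL7, at 6.33 against 6.76 to 6.82. Array 3 before hCG was the lowest for TTYH2, at 6.85 against 7.10 to 7.13.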

How the results depend on the processing

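Array weights and the restriction to signals above the median were not read for the members. Under the other alternatives no difference of a member changed sign. Leaving out 1 array could not reverse the sign in the 7 of 8 probe sets whose groups do not overlap. Averaging all probe sets of a gene gave 2.25 for F11R, 2.50 for CLDN1 and 2.15 for CLDN3, and adding 32 to each intensity gave 3.10 for CLDN1 and 2.43 for CLDN3. Without one array the differences of the brightest probe sets ran from 4.40 to 5.03 for F11R, from 3.94 to 4.33 for CLDN1 and from 2.56 to 2.75 for CLDN3. Without one array, 8 to 11 other tight junction genes were called higher and 2 to 4 lower, with 2 lower without array 1 before hCG or array 2 or 4 after it. For adherens and gap junction genes and regulators, 1 gene was called higher with 32 added. Without one array 0 to 2 were called higher, with 0 (limma, 4 at an unadjusted p under 0.05) when array 4 of the first group was dropped and 1 when array 1 of that group or array 4 of the second was, and 1 to 2 lower, with 2 without array 3 after hCG. Of the 5 genes most like each member, 0 stayed for F11R, 0 for CLDN1 and 0 for CLDN3 when deviations from the group means were used. The r of those genes over the deviations was 0.60 to 0.93. The cause of these shifts was not tested. Signals near the bottom of the range, as in F11R MmugDNA.6455.1.S1_at, limit what can be seen there.

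With the replicate number as a block, which the labels do not describe as pairs, 1 of the adherens and gap junction genes and regulators was called higher, against 3 without the block. With the block 10 other tight junction genes were called higher and 4 lower. Over all genes the block gave 1509 higher and 1554 lower. The differences of the members were the same, at 4.73 (SE 0.38), 4.13 (SE 0.29) and 2.66 (SE 0.18).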
